A study of Mus musculus with 3 samples.

Results

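The neuromuscular junction genes followed here were 10 genes measured in mouse soleus with and without Mettl21c. They were taken as the non-control probes whose RefSeq accession, without version, maps to Chrna1, Chrnb1, Chrnd, Chrne, Chrng, Musk, Rapsn, Ache, Colq or Lrp4. All 10 were found, with 13 probes of the 55681 on the array, against 36638 genes or unnamed transcripts in all. The muscle, named SOL in the labels and read here as the soleus, came from male C57BL/6 mice aged 8 weeks on regular chow. The knockout mice (KO) carried the genotype Mettl21cLacZ/LacZ and the other mice (WT) were wild type, with 3 biological replicates of each. Mettl21c encodes a lysine methyltransferase of muscle. Each of 3 arrays held 1 WT sample labelled with Cy3 and 1 KO sample labelled with Cy5, and the dyes were not exchanged, so dye and genotype cannot be told apart.

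The junction is the contact at which a motor nerve ending releases acetylcholine onto a muscle fibre. The muscle receptor for acetylcholine is a pentamer of alpha, beta and delta subunits with gamma in the fetus and epsilon in the adult, encoded by Chrna1, Chrnb1, Chrnd, Chrng and Chrne. Nerve-derived agrin binds LRP4, which activates the kinase MuSK, and the scaffold rapsyn then gathers receptors under the nerve ending. Acetylcholinesterase, anchored in the synaptic basal lamina by the collagen tail ColQ, ends the signal. Fibre nuclei beneath the synapse transcribe these genes strongly, whereas denervation raises several of them along the whole fibre. In whole muscle RNA, fewer junctional nuclei and less RNA per nucleus cannot be told apart.

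Promoter windows of 6 members were in the RefSeq table of GRCm38.p6, and 3 are printed because they set side by side the receptor subunit shared by fetal and adult muscle, the adult subunit and the fetal subunit. Each window is the 250 bases before the gene start on the gene's strand. Capitals mark the N-box CCGGAA, bound by GA-binding protein, and E-boxes of the form CANNTG, bound by myogenic factors, searched on both strands. No N-box match overlapped an E-box in them.
Chrna1 (chr2:73580339-73580588, minus strand): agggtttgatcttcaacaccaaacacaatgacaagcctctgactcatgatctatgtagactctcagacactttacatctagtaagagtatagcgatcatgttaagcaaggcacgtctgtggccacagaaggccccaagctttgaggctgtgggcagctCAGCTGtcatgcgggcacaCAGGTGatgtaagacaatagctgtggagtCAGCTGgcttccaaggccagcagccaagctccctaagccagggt
Chrne (chr11:70619195-70619444, minus strand): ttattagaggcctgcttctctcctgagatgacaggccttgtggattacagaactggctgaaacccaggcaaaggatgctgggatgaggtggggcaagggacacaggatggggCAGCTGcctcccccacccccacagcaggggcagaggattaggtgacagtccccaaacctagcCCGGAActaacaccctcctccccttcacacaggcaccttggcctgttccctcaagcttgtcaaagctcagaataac
Chrng (chr1:87205561-87205810, plus strand): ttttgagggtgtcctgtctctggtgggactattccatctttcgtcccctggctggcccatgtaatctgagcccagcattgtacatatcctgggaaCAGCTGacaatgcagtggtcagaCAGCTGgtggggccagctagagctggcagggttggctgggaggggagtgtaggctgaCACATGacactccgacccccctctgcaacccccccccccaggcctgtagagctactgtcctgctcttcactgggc
Chrne was the only member of the 6 with an N-box match, 76 bases before its start, beside 1 E-box. Chrna1, Chrnb1, Chrng and Musk each had 3 E-boxes and 0 N-boxes, and Ache had 1 E-box. Of all 32851 promoter windows in that table, 12% held an N-box and 66.2% an E-box, so E-boxes in these windows were common everywhere. A match is a description of letters and was not tested as a binding site.

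The targeted gene was low in every KO sample. Its mean log2 ratio of KO over WT was -2.45 (SD 0.48, n = 3, limma adjusted p = 0.0175), so Mettl21c fell. Its KO spot was well above background on 1 of the 3 arrays, with processed signals of 200.4, 32.3 and 45.4 against 7527, 3677 and 4486 in WT, so the size was not measured and the ratio depends on the background step. It was -3.51 without background subtraction and -6.23 with processed signals (limma adjusted p = 0.0690). The scanner software flagged 20.4% to 23.6% of the 59305 non-control spots as well above background for WT and 22.5% to 22.9% for KO. Of 7424 genes or transcripts tested in limma, 3 had an adjusted p under 0.05 (0.0404%), and these were all lower in KO. Ratios of different arrays correlated weakly across genes, with Pearson r from 0.206 to 0.350, described over genes that are no independent replicates. Muscle markers bore out the labelled tissue, with 10 of 10 well above background on at least 1 array and their summed processed signal between 250216 and 330520 in WT and between 268362 and 273608 in KO. Markers of motor axons were mostly not detected, with 9 of 13 never above background, among them Chat, Slc18a3 and Nefl, and a summed signal of 568 to 3212 in WT and 636 to 3645 in KO. For Schwann cells 3 of 12 markers were never above background, and the sums were 3299 to 11529 in WT and 2736 to 8195 in KO. The sums overlapped between genotypes in each of these lists, and their part in the values below was not tested. Endothelial sums were 15232 to 17071 in WT and 13703 to 22512 in KO, macrophage sums 7851 to 16013 and 7078 to 11024, and fibroblast and tendon sums 18342 to 67505 and 24060 to 50005. Red blood cell sums did not overlap, at 32869 to 53945 in WT and 77837 to 129846 in KO, and their part in the results was not tested.

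Most junction genes were near the detection limit. A probe is called well above background here when the scanner software's flag says so. Of the 13 probes, 10 were well above background in at least 1 channel of 1 array, against 31.2% of all probes. A gene was tested when 1 of its probes was measured on every array and had that flag throughout in at least 1 genotype, which 4 of the 10 met, Chrna1, Chrne, Rapsn and Colq, against 26.7% of named genes on the array. Such a filter lets a gene in through the genotype in which it is higher, so the tested members are not a sample of the family. Chrne met it in WT alone, and Chrna1, Rapsn and Colq met it in both genotypes.

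**Figure D1:**
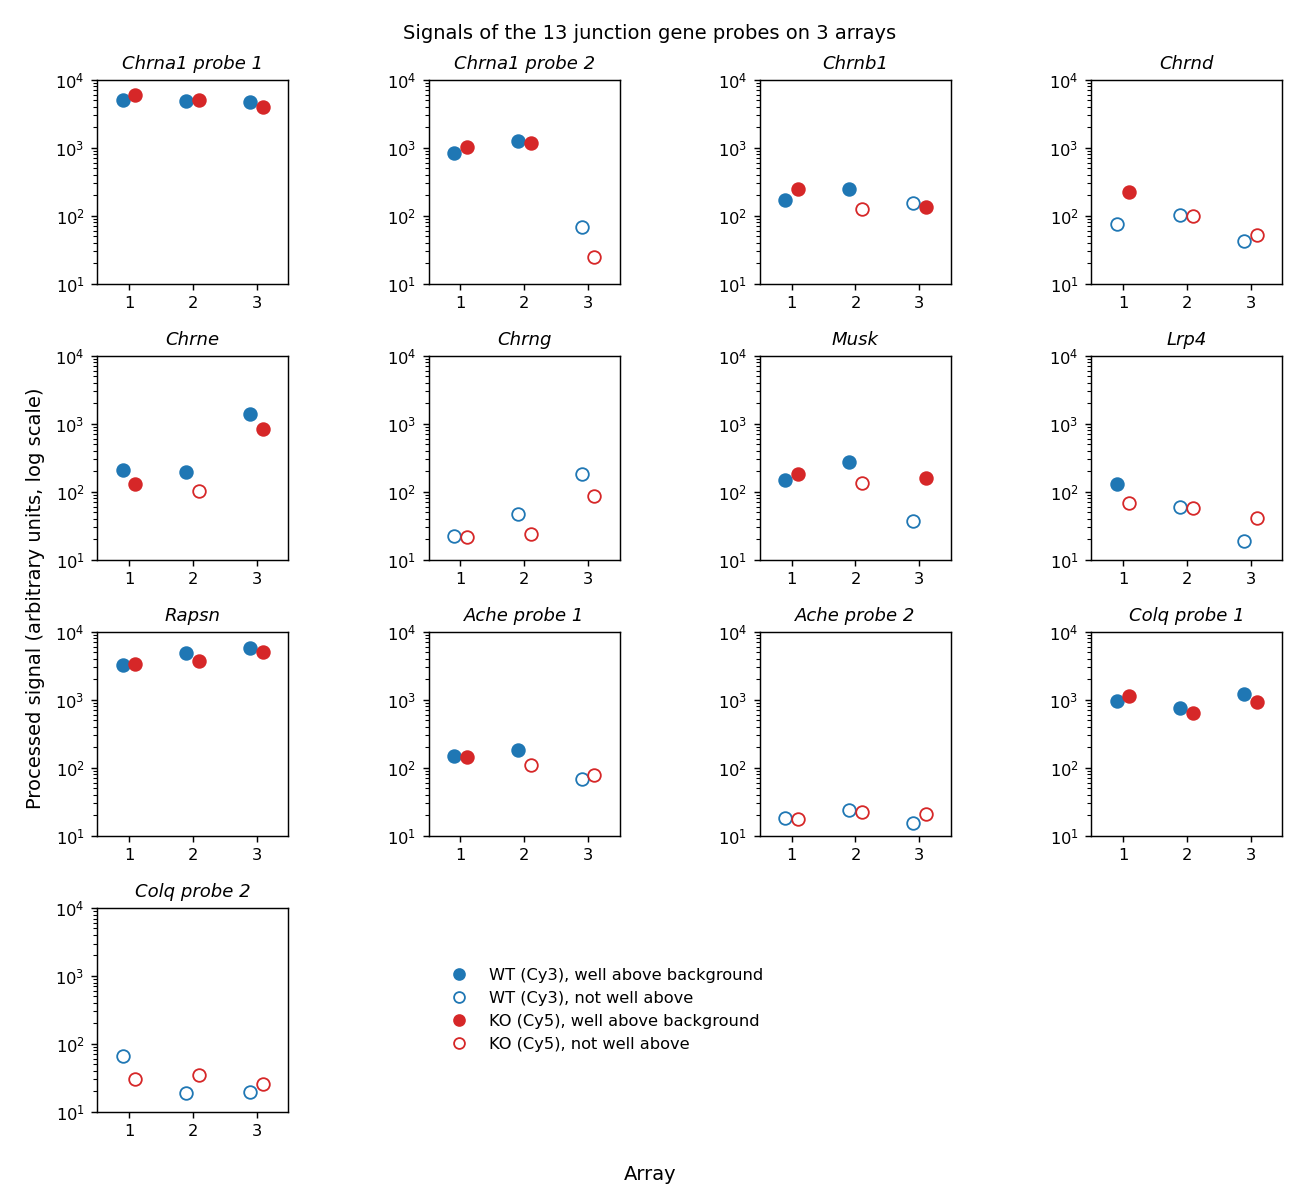
Processed signal of each junction probe on arrays 1 to 3 (log scale, arbitrary units), WT in blue and KO in red, with open circles for spots not well above background. The brightest Chrna1 probe, Rapsn and the brightest Colq probe stay filled throughout, Chrng and the second Ache and Colq probes are open throughout, and Chrne is higher on array 3 in both genotypes.

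No junction gene passed the test. In limma 0 of the 4 tested members had an adjusted p under 0.05 and 0 had an unadjusted p under 0.05, against 0.0404% and 13.4% of all tested genes. Their log2 ratios of KO over WT had a median of -0.13, beside -0.0027 over all tested genes, and medians of 0.05, -0.07 and -0.23 on arrays 1 to 3. Rapsn, with a ratio below 0 on all 3 arrays, was the 1 member of 4 to keep a sign after loess, where 18.3% of all tested genes were below 0 on every array. The WT and KO processed signals overlapped for all 4, while they did not for 6.44% of tested genes.

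Among the receptor subunits, the alpha subunit gene Chrna1 was measured in all 6 samples. The processed signals of its brightest probe were 5107, 4887 and 4709 in WT and 5915, 4988 and 3955 in KO on arrays 1 to 3. WT was nearly constant, while KO ran from above WT on array 1 to below it on array 3. After background correction and loess, which removes a dye difference that follows intensity, the log2 ratios were 0.33, 0.13 and -0.18. Their mean was 0.10 (SD 0.26, moderated 95% interval -0.15 to 0.34, n = 3, limma adjusted p = 0.760). Intervals here and below rest on limma's moderated spread, which also draws on all tested genes, and not on the SD beside them. The 3 arrays alone would give wider intervals. Without array 1 the Chrna1 mean was -0.02, and without array 3 it was 0.23 (limma adjusted p = 0.232).

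A second Chrna1 probe did not track the first on array 3. It gave 837, 1244 and 67.0 in WT and 1008, 1176 and 24.9 in KO, and neither channel was well above background on array 3. Both genotypes were low on that array, by a size that spots at background cannot give. The probe was left out of the test, and its loess ratios were 0.08, -0.10 and -0.08.

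Chrne, the adult epsilon subunit, was lower in KO within each array by the scanner's processed signals. These were 209, 194 and 1404 in WT against 129, 102 and 829.6 in KO, and the KO spot of array 2 was not well above background. Array 3 stood 6.71-fold above the higher of the other arrays in WT and 6.42-fold in KO, so its KO sample exceeded the WT samples of arrays 1 and 2 and the genotypes overlap. A WT rise of that size on array 3 occurred in 116 tested genes (1.56%). The processed log2 ratios were -0.70, -0.93 and -0.76. In limma on those ratios the mean was -0.79 (SD 0.12, n = 3, unadjusted p = 0.00145, adjusted p = 0.404). Among all tested genes, 5.56% were lower at an unadjusted p under 0.05 in that fit. Processed ratios were below 0 on all arrays for 18.5% of tested genes. Chrne met the filter through WT alone, where it was higher, so these values are no separate support for a lower KO.

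After normexp correction with an offset of 50 and loess, the fitted difference in Chrne was smaller, and which of these values is nearer the true ratio was not settled by these arrays. The log2 ratios were 0.03, -0.04 and -0.42. Their mean was -0.14 (SD 0.24, moderated 95% interval -0.38 to 0.09, limma adjusted p = 0.599). Without array 3 the mean was -0.0074. The spots of arrays 1 and 2 were faint, with median intensities of 48 and 44.5 over local backgrounds of 35 and 36 in WT, and 25.5 and 21 over 16 and 17 in KO. On array 3 they were 156 over 33 in WT and 59 over 17 in KO. With an offset of 16 the loess mean was -0.20 (SD 0.32, limma adjusted p = 0.573), and without background subtraction it was -0.25 (SD 0.25, limma adjusted p = 0.474). Centring arrays without loess gave 0.07 (SD 0.50).

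Chrng, the fetal gamma subunit that epsilon replaces after birth, was not well above background in either genotype on any array. Its median intensities were 28, 30.5 and 28.5 in WT over local backgrounds of 29, 30 and 29, and 16, 19 and 15.5 in KO over 16, 17 and 17. Processed signals were 22.6, 46.8 and 180.0 in WT and 21.4, 24.3 and 86.6 in KO, the values of array 3 being highest where the spot was below its local background, so they are not read as levels. No fold is given, since both genotypes were at background. Chrng lies beside Chrnd in the RefSeq gene order.

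Chrnd, the delta subunit, was well above background in 1 of 6 samples, the KO sample of array 1. Its processed signals were 74.2, 102 and 42.3 in WT and 223, 99.1 and 51.8 in KO. The samples overlap, with KO high on array 1, and the loess ratios were 0.11, 0.06 and 0.02. No fold is given, since WT and 2 of the 3 KO spots were not well above background.

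Chrnb1, the beta subunit, gave processed signals of 170, 250.2 and 151 in WT and 245, 124 and 134 in KO. The WT spot of array 3 and the KO spot of array 2 were not well above background, so the gene was not tested. Its loess ratios were 0.10, -0.11 and -0.14, a mean of -0.05 (SD 0.13), and the genotypes overlap.

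Of the clustering genes, Rapsn, which encodes the receptor scaffold rapsyn, was well above background in all 6 samples. Processed signals were 3205, 4924 and 5781 in WT and 3327, 3672 and 5054 in KO. KO was lower on arrays 2 and 3 and slightly higher on array 1, and array 3 was highest in both genotypes. The loess log2 ratios were -0.05, -0.47 and -0.08. Their mean was -0.20 (SD 0.24, moderated 95% interval -0.44 to 0.04, limma adjusted p = 0.450). The mean was -0.06 without array 2. Centring each array without loess gave -0.51 (SD 0.28, limma adjusted p = 0.0204), in a fit that called 2658 genes in all.

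Musk, the receptor kinase, gave 147, 277 and 37.7 in WT and 183, 137 and 160 in KO. KO was higher on arrays 1 and 3 and lower on array 2. The WT spot of array 3 and the KO spot of array 2 were not well above background, so it was not tested. Its loess ratios were 0.01, -0.17 and 0.23, a mean of 0.02 (SD 0.20), while processed signals gave 0.46 (SD 1.56).

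Lrp4, the agrin receptor, was well above background in the WT sample of array 1 alone. Processed signals were 131, 59.9 and 19.1 in WT and 69.0, 58.5 and 40.9 in KO, and the genotypes overlap. The loess ratios were -0.14, -0.01 and 0.04. No fold is given, since KO and 2 of the 3 WT spots were not well above background.

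**Figure D2:**
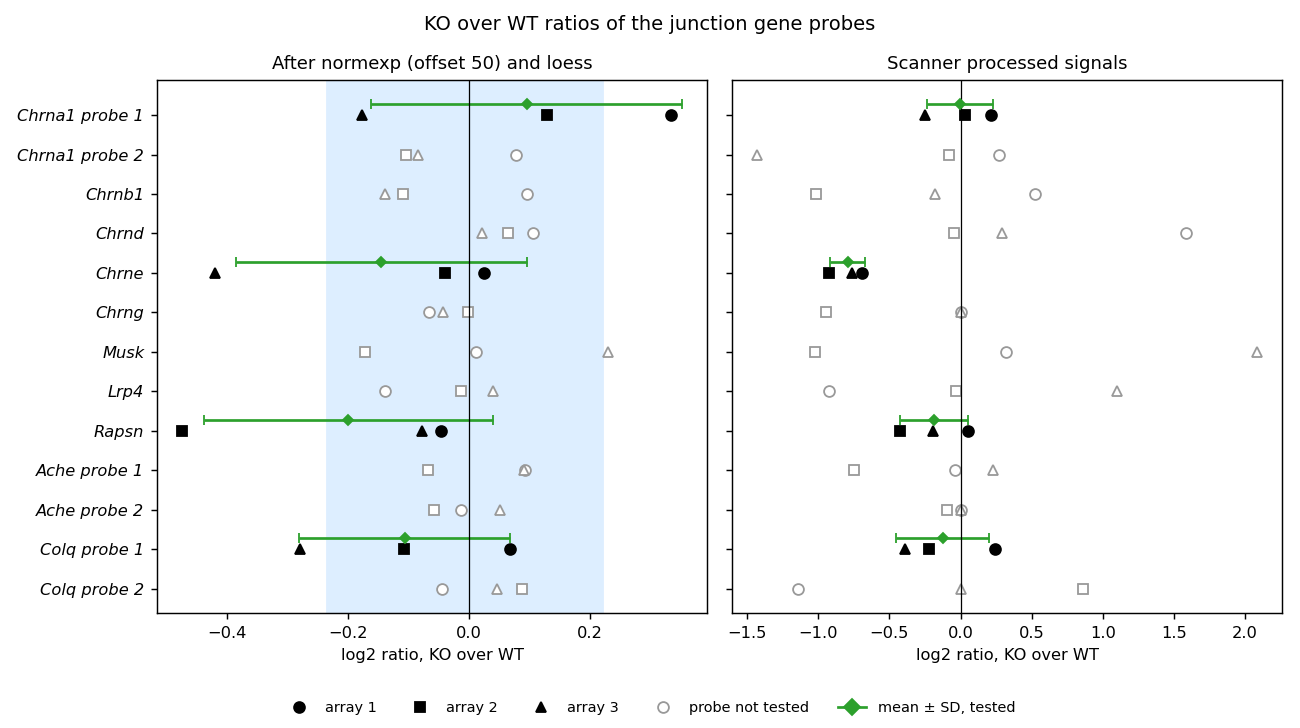
Log2 ratio of KO over WT for each junction probe on the 3 arrays, after normexp and loess (left) and from the scanner's processed signals (right), on axes of different width. On the right, the scanner's ratio is 0 for some spots whose processed signals differ, as for Chrng on arrays 1 and 3. Filled symbols are tested probes with mean ± SD in green, and the blue band spans the 5th to 95th percentile of all tested genes (-0.23 to 0.22). Chrne sits near -0.79 on the right and is spread from 0.03 to -0.42 on the left.

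Of the esterase genes, Colq, the collagen tail, was measured in all 6 samples at its brightest probe. Processed signals were 960.4, 758 and 1231 in WT and 1134, 649.8 and 938 in KO. KO was higher on array 1 and lower on arrays 2 and 3, within the range of WT apart from array 2. The loess log2 ratios were 0.07, -0.11 and -0.28. Their mean was -0.11 (SD 0.17, moderated 95% interval -0.31 to 0.10, limma adjusted p = 0.652). Its mean was -0.02 without array 3 and -0.19 without array 1. The second Colq probe was not well above background in any sample.

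Ache, the esterase itself, was faint. Its brighter probe gave 147, 183 and 67.5 in WT and 143, 109 and 79.1 in KO, and was well above background in WT on arrays 1 and 2 and in KO on array 1. The loess ratios were 0.09, -0.07 and 0.09, a mean of 0.04 (SD 0.09), and the genotypes overlap. By processed signals the mean was -0.18 (SD 0.51). The other Ache probe was not well above background in any sample. When the filter on dim probes was dropped, all 10 members entered limma and 0 passed, with 0 at an unadjusted p under 0.05 and adjusted p from 0.785 for Rapsn to 0.964 for Musk. In that fit 0 of 36218 genes passed, 2468 had an unadjusted p under 0.05, and Mettl21c had a limma adjusted p of 0.172. The fit cannot decide whether the faint members changed, since their ratios are pulled towards 0.

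**Figure D3:**
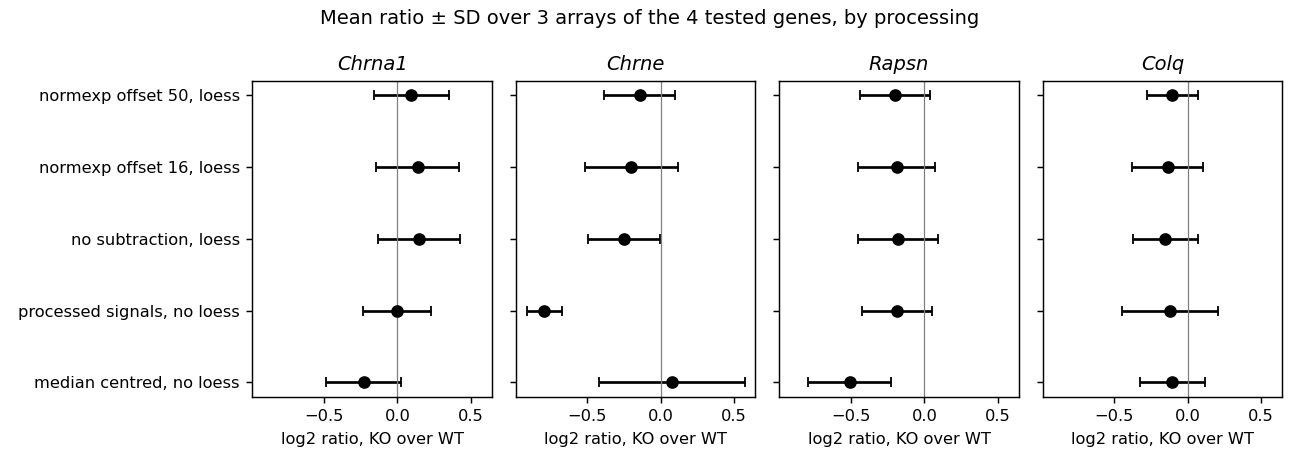
Mean log2 ratio of KO over WT with SD over 3 arrays for the 4 tested genes under 5 ways of processing. Colq stays between -0.15 and -0.10, Rapsn reaches -0.51 when centred without loess, and Chrne ranges from -0.79 with processed signals to 0.07 when centred without loess.

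Genes that work with the members were read from 5 lists. Of 16 partners of agrin and MuSK signalling, 9 were tested, 5 with a positive and 4 with a negative mean, with a median of 0.04 and 0 past the test. Dnaja3, a co-chaperone that binds MuSK, was at 0.18 (SD 0.27), Dvl1, a Wnt pathway adaptor, at -0.10 (SD 0.04) and Ctnnb1, beta-catenin, at 0.09 (SD 0.05). Their limma adjusted p ran from 0.521 to 0.612. Dvl1 and Ctnnb1 kept 1 sign on the 3 arrays, and Dnaja3 did not. Of the 9 tested, 2 were above and 1 was below 0 on all 3 arrays, against 17.5% and 18.3% of all tested genes.

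The neuregulin and synapse-specific transcription list had 2 of 9 genes tested. Etv5, an ETS factor of junctional nuclei, was at 0.21 (SD 0.13, limma adjusted p = 0.316), and Gabpb1, a subunit of the N-box binding protein, at -0.00054 (SD 0.12, adjusted p = 0.997). Etv5 was above 0 on all 3 arrays, as were 17.5% of all tested genes. Its unadjusted limma p was under 0.05, as was that of 13.4% of all tested genes. Of 22 genes of the synaptic basal lamina and its cytoskeleton 12 were tested, 5 positive and 7 negative, with a median of -0.02 and 0 past the test. Hspg2, the perlecan that holds ColQ in the basal lamina, was at 0.27 (SD 0.16, adjusted p = 0.240). Lama2, a laminin chain of the whole fibre surface, was at -0.23 (SD 0.08, adjusted p = 0.249), and Utrn, the junctional relative of dystrophin, at 0.17 (SD 0.10, adjusted p = 0.383). These 3, named for their small p, kept their sign on all arrays. Of the 12 tested, 4 were above and 3 were below 0 on all 3 arrays, against 17.5% and 18.3% of all tested genes. An unadjusted limma p under 0.05 was seen in 2 of the 12, against 13.4% of all tested genes.

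None of the tested genes that respond to loss of the nerve passed. Of 16 listed, 10 were tested, 5 positive and 5 negative, with a median of -0.01. In limma 0 passed, and 3 had an unadjusted p under 0.05, against 13.4% of all tested genes. Hdac9, a class IIa deacetylase that represses junction genes in innervated muscle, was at 0.46 (SD 0.23, limma adjusted p = 0.129), with ratios of 0.22, 0.68 and 0.48. Robust, trended moderation in limma gave it an adjusted p of 0.0391. Trim63, the ubiquitin ligase MuRF1, was at -0.28 (SD 0.08, adjusted p = 0.175), and Hdac5, another class IIa deacetylase, at -0.27 (SD 0.28, adjusted p = 0.360), led by -0.59 on array 3. Centring without loess, in the fit with 2658 calls, put Hdac9 at 0.31 (limma adjusted p = 0.0404), Trim63 at -0.44 (0.0164) and Hdac5 at -0.59 (0.0175). Of the 10 tested genes, 4 were above and 4 were below 0 on all 3 arrays, against 17.5% and 18.3% of all tested genes.

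Related acetylcholine genes mostly did not meet the filter. Of 20 neuronal receptor subunits, cholinergic enzymes and transporters and LRP or ROR relatives, 2 were tested, Lrp6 at -0.10 (SD 0.07) and Lrp5 at 0.0059 (SD 0.12), both Wnt co-receptors, with limma adjusted p of 0.579 and 0.985. Lrp6 was below 0 on all 3 arrays, as were 18.3% of all tested genes.

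**Figure D4:**
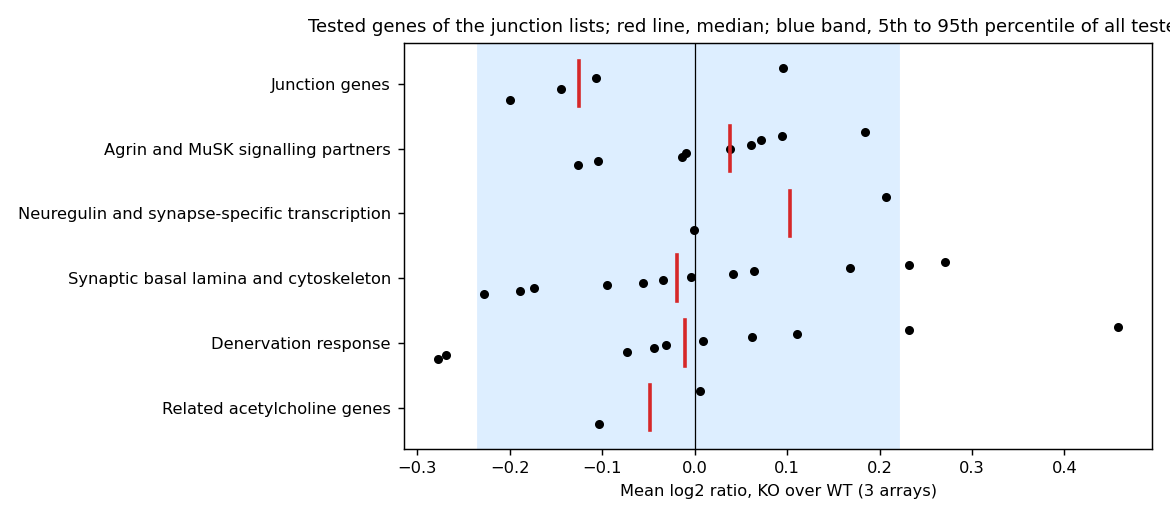
Mean log2 ratio of KO over WT over 3 arrays for each tested gene of the junction genes and of the 5 lists, with the list median in red and the 5th to 95th percentile of all tested genes (-0.23 to 0.22) as a blue band. Hdac9 at 0.46 lies farthest from 0, and the 4 junction genes lie between -0.20 and 0.10.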

How the data were processed

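Total RNA of soleus from 3 WT and 3 KO mice was hybridised to 3 Agilent arrays of 2 colours. The deposited scanner files give the intensity of each spot and of its local background and a processed signal, which per the file headers Feature Extraction 12.0.3.1 background-subtracted and dye-normalised (the submitters' processing notes name version 11.5). Where it is not 0, the deposited log10 ratio equals processed KO over WT. It is 0 for some spots whose processed signals differ, among them Chrng on array 3 (180.0 in WT, 86.6 in KO). The deposited series matrix repeats the ratio to within 0.0050, with column medians of 0.

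Median intensities were corrected with normexp (offset 50) and loess in limma 3.58.1 (R 4.3.3), with control and outlier-flagged spots at weight 0 and flagged spots left out; 0 spots were saturated. Each gene was represented by its brightest tested probe, and 28664 of 29472 probes with a RefSeq accession were named through GRCm38.p6. The mean log2 ratio was tested against 0 with eBayes and Benjamini-Hochberg adjustment over 7424 genes; the array pairs the samples. P-values and intervals set the mean against a moderated spread, drawn from a gene's 3 arrays and from all tested genes. They do not separate dye from genotype, and the number of arrays limits the precision. The steps were tested on simulated KO and WT arrays of 7424 genes. They recovered 55 of 100 genes shifted by 2 on the log2 scale and 18 of 100 shifted by 1. Median fitted sizes were 0.97 and 0.59, so the fitted ratios fell short of the shifts put in. There was 1 call among 7224 unchanged genes. The simulated noise was independent between arrays and held no dye effect of single genes. That count therefore says nothing about calls that such an effect could give in the real arrays. The members, the 5 gene lists, 7 marker lists and the named genes (the members, Mettl21c, and the 3 smallest p of each list with any that passed) were chosen with earlier results of these data known.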

Additional observations from a re-analysis of the deposited data

How the results depend on the processing

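The count of junction genes passing limma's adjusted p of 0.05 was 0 under each alternative run except centring without loess, which gave 1, Rapsn. That setting called 2658 genes, 1014 higher and 1644 lower, 15 of them in the 5 lists. The count of all genes passing, 3 in the report, was 5 without background subtraction, 25 with an offset of 16, 85 with robust moderation (41 higher, 44 lower, and 1 list gene), 62 with array weights (45 higher, 17 lower), and 1 each with outlier spots kept, each probe tested or probes averaged. It was 0 with processed signals (806 at an unadjusted p under 0.05), with no filter (2468), with both channels required well above background (935, with Chrne no longer tested) and with no replicate block, the 6 channels as samples (236). Leaving out 1 array gave 9 to 158 calls over the same genes: 9 without array 1, 15 without array 2 and 158 without array 3 (87 higher, 71 lower), and 0 junction genes each time. The cause was not tested. At an unadjusted limma p under 0.05 there were 0 members in the report. There was 1 with processed signals, 1 with array weights and 1 when centred without loess, and there were 2 without array 3. Of the 8 alternatives that changed the ratios of the tested members, Rapsn and Colq kept a negative mean in 8, Chrne in 7 and Chrna1 a positive mean in 5. Mettl21c, lower in the 15 alternatives that tested it, missed the threshold with processed signals (-6.23, limma adjusted p = 0.0690), and at the same -2.45 with no filter (0.172) and 6 channels (0.752). Signal over background limits 9 of the 13 probes, which were not tested. A gene that rose well above background on every array in either genotype would have been tested, and the 6 untested genes did not. Smaller differences in these genes were not detectable here rather than absent.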
